A study of Homo sapiens with 33 samples.

Results

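The data described here are the binding clusters of wild-type (WT) hnRNPA1 in a neuroblastoma line and in a kidney-derived line. They come from irCLIP, in which RNA is crosslinked to protein by ultraviolet light, the protein is precipitated and the bound RNA is sequenced. The 2 lists of significant clusters were used whole: 564935 clusters of WT SH-SY5Y cells and 510910 of WT Flp-In cells, or 1075845 of the 2075166 clusters listed for the series once exact duplicate lines were dropped. Each list pools 3 irCLIP samples, so no value of a list has a replicate error. A cluster was called shared when a cluster of the other line overlapped it by 1 nt or more on the same strand, and line-specific otherwise.

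SH-SY5Y is a human neuroblastoma line with a sympathetic, noradrenergic character. Flp-In T-REx is a human embryonic kidney line with a defined site for inserting a transgene under a tetracycline-controlled promoter. Whether either line was a single clone is not stated in the labels. The Flp-In cells carried an inducible WT hnRNPA1 transgene and received tetracycline at 1 µg/mL for 72 hr before harvest. The SH-SY5Y irCLIP samples are labelled by line and genotype, and their labels name no tetracycline and no differentiation. The other 2 lists pool 3 samples each of cells with hnRNPA1 D262V, a disease-linked substitution in the low-complexity domain. In Flp-In it was carried by an induced transgene under the same treatment. For SH-SY5Y its zygosity is not given for irCLIP. Expression came from poly(A) RNA-seq of 3 undifferentiated WT SH-SY5Y and 3 induced WT Flp-In libraries. A further 3 libraries of WT SH-SY5Y differentiated for 18 days served as an alternative. Nothing in the labels ties replicates to separate cultures, and p-values thus measure the spread between these libraries, which may be technical. Line, transgene, induction and data table go together in every comparison and cannot be told apart.

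hnRNPA1 is an abundant nuclear RNA-binding protein of the heterogeneous nuclear ribonucleoprotein family. It binds nascent transcripts through a pair of RNA recognition motifs that prefer UAG-centred sequences, with UAGGG as its classic motif. It represses many exons when bound in or beside them, and it also binds certain miRNA precursors. It coats unspliced pre-mRNA, much of it intronic, so the set of transcripts a cell makes limits where it can bind.

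Sequences of the deposited build were available for miRNA hairpins and for gene start regions, from RefSeq (GRCh38.p14), and a few that a cluster overlapped by 1 nt or more are shown. They were picked to compare related hairpins, and 3 of the 4 hold UAGGG, which 9 of the 120 hairpins touched in either line did. An overlap does not place binding at the marked letters. MIR10A and MIR10B are paralogs in the HOX clusters, the first touched only in Flp-In and the second in both lines. MIR98 and MIRLET7B belong to the let-7 family, the first touched in both lines and the second only in SH-SY5Y. Capitals mark every copy of the longest of UAG, UAGG and UAGGG that the transcribed strand holds.
MIR10A hairpin: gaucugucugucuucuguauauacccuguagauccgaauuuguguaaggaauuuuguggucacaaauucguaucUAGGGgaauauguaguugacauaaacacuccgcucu
MIR10B hairpin: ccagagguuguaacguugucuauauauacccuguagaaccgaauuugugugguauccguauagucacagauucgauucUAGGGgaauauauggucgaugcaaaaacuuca
MIR98 hairpin: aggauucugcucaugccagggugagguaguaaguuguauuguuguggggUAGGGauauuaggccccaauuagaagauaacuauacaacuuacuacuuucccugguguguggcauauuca
MIRLET7B hairpin: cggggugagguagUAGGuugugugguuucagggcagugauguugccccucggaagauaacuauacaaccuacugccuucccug

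The MIR10A hairpin lies at chr17:48579838-48579947 on the minus strand, and its 1 Flp-In WT cluster scored 171 in that list. The MIR10B hairpin lies at chr2:176150303-176150412 on the plus strand, with 1 cluster in each WT list, of score 635 in SH-SY5Y and 181 in Flp-In. In both hairpins the UAGGG stands in the 3′ part. MIR98 is at chrX:53556223-53556341 on the minus strand inside HUWE1, with scores of 141 and 135. MIRLET7B is at chr22:46113686-46113768 on the plus strand inside MIRLET7BHG, with a score of 39. The mature products follow with their seeds, bases 2 to 8, in capitals. The 5p products of let-7b and miR-98 share 1 seed, which itself holds UAG, and miR-222 (hairpin touched in Flp-In only, score 377) and miR-125b (SH-SY5Y only, score 106) have seeds of their own.
let-7b-5p: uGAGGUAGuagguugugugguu
miR-98-5p: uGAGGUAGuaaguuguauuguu
miR-10a-5p: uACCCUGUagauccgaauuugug
miR-222-3p: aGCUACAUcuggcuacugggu
miR-125b-5p: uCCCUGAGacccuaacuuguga

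A pair of clusters beside RefSeq start sites comes from line-specific genes. ELAVL4 encodes the neuronal RNA-binding protein HuD. Its cluster at chr1:50120570-50120768 on the plus strand was listed in SH-SY5Y only, with a score of 147, and began 181 bases before a start site. NKAIN2 encodes a neuronal protein that interacts with the sodium pump. Its cluster at chr6:123804182-123804380 on the plus strand was listed in Flp-In only, with a score of 438, and lay wholly before a start site. The bases of each cluster before the start are given, with TAGGG in capitals for ELAVL4 and TAG for NKAIN2.
ELAVL4: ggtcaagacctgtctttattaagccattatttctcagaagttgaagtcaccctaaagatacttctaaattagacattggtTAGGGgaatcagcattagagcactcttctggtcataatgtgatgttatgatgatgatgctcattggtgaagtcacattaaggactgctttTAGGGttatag
NKAIN2: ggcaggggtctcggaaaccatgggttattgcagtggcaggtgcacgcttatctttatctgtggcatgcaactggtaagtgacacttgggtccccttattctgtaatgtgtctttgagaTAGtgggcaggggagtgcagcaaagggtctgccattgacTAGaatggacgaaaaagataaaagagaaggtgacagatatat

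The gene counts need a caution that holds for every count below. Only 4.14% to 4.35% of the listed reads of the SH-SY5Y libraries and 5.65% to 5.94% of the Flp-In libraries fell in a gene row, or 1994575 to 4619581 reads a library. The library kit kept the strand, and named antisense genes outranked their sense partners. Counts are given as CPM, each count scaled to the library size. Of pairs with 20 CPM or more between them, the antisense row was higher in 246 of 367 pairs in SH-SY5Y and in 247 of 357 in Flp-In. HAND2-AS1 stood at 3994 ± 39.8 CPM and HAND2 at 123 ± 11.7 in SH-SY5Y (SD, n = 3). ACTB, one of the most abundant mRNAs of most cells, stood at 80.7 ± 6.88 CPM. The strand setting of the counting is not stated. A CPM below is the level of the counted reads and may not be that of the mRNA. Reads over splice junctions do not depend on that setting and are given beside the counts where the authors' splicing tables of both lines list the same junction. Those tables hold only splicing events the authors selected between D262V and WT within a line. Thus 3633 junctions in 937 genes could be used, with 803714 reads in the smallest library. The reads of a gene are summed over these junctions alone. A difference in junction reads between the lines may thus be one of gene level or of the junctions chosen, which cannot be told apart.

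HNRNPA1 itself was bound in both lines and was read more in Flp-In. The gene (chr12:54280726-54287087, hg38) held 11 clusters in SH-SY5Y and 9 in Flp-In, of which 9 and 9 were shared. Its junction reads stood at 6232, 7174 and 4485 CPM of junction reads (junction CPM) in the 3 SH-SY5Y libraries and at 14774, 12453 and 13532 in the 3 Flp-In libraries. The groups did not overlap, and the log2 fold change of SH-SY5Y over Flp-In was -1.19 (SE 0.169, adjusted p = 0.00012). Counts gave 37.5, 39.3 and 46.7 CPM against 207, 182 and 189, a log2 fold change of -2.23 (SE 0.167, adjusted p = 2.7e-06). Of all genes tested, 26.1% were called higher in Flp-In by counts and 25.9% by junction reads. Reads of the transgene and of the endogenous gene could not be told apart.

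Most clusters of either line were also found in the other. In SH-SY5Y 381871 clusters, or 67.6% (95% Wilson interval 67.5% to 67.7%), overlapped a Flp-In cluster. In Flp-In 355742 clusters, or 69.6% (69.5% to 69.8%), overlapped an SH-SY5Y cluster. The intervals cover counting error only, since each list is a single pool. They also treat clusters as independent, although 24.3% of SH-SY5Y and 15.4% of Flp-In clusters overlapped an earlier cluster of their list. The intervals are therefore likely too narrow. SH-SY5Y clusters had a median length of 150 nt and covered 73.7 Mb, against 130 nt and 63.3 Mb in Flp-In.

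The D262V lists, which come from other samples, show whether a line-specific cluster was found in a second pool of its line. Of the clusters specific to SH-SY5Y WT, 72.9% were found again in SH-SY5Y D262V and 10.5% in Flp-In D262V. Of the clusters specific to Flp-In WT, 68.7% were found again in Flp-In D262V and 12.7% in SH-SY5Y D262V. Shared clusters were found again in 90.3% and 89.0% of cases in the D262V list of their own line, and in 88.9% and 89.6% in that of the other. Line-specific clusters therefore recurred within the line, although less often than shared ones did. Their low shares in the other line follow in part from the rule, which requires absence from the WT list of that line.

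The difference between the lines was mostly a difference in which genes were listed at all. Clusters lay in 1501 genes in SH-SY5Y only, in 1458 genes in Flp-In only and in 7359 genes in both. Of the 1497 genes with 100 or more clusters in SH-SY5Y, 350 had none in Flp-In, 8 had some but fewer than 0.5 times as many, and 1139 had 0.5 to 2 times as many. Of the 1384 such genes of Flp-In, 245 had none in SH-SY5Y, 5 had fewer than 0.5 times as many and 1134 had 0.5 to 2 times as many. Genes thus were either listed at a like number or not listed, with 13 genes between. The same happened between WT and D262V pools of 1 line, less often: 87 of 1497 genes had no cluster in SH-SY5Y D262V and 50 of 1384 had none in Flp-In D262V.

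**Figure D1:**
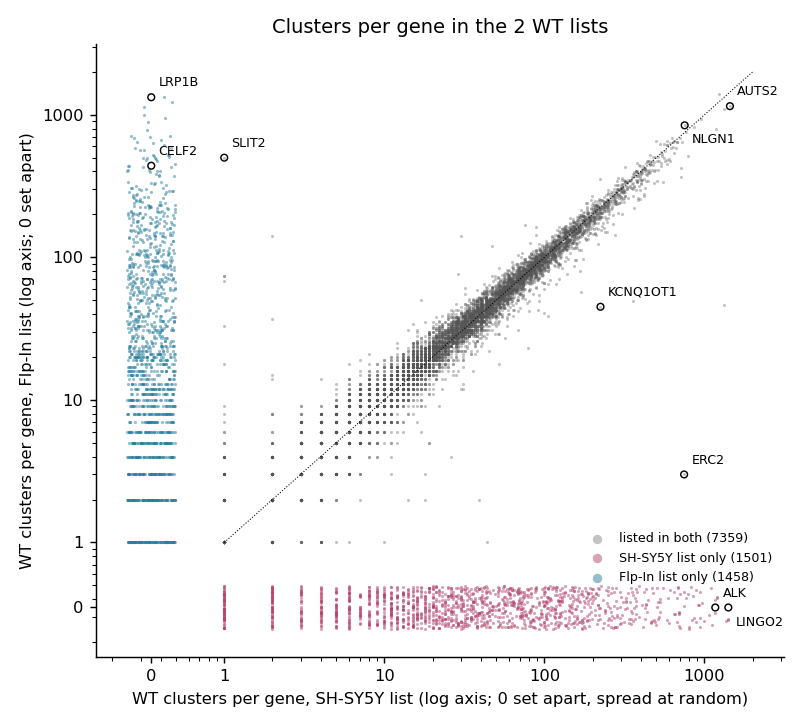
Clusters per gene in the SH-SY5Y WT list (x axis) and the Flp-In WT list (y axis), 1 point a gene, on log axes with genes at 0 set apart and spread at random. Genes listed in both lie along the dotted line of equality, and genes of 1 list fill the bands at 0 up to 1409 clusters (LINGO2) and 1327 clusters (LRP1B).

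Among genes of 100 or more clusters, those listed in 1 line only had lower-scoring clusters. The median score of their clusters, taken per gene, had a median of 43 where Flp-In listed none and of 59 where it listed some, over SH-SY5Y genes with 100 or more clusters. In Flp-In the values were 33 and 45, but over Flp-In genes of 300 or more clusters both were 39. Genes that dropped out between the 2 pools of a line had lower values still, 26 against 57.5 in SH-SY5Y and 24 against 43 in Flp-In. Line-only genes held 73.9% of the line-specific clusters of SH-SY5Y and 56.9% of those of Flp-In. Within genes listed in both lines, 88.9% of SH-SY5Y clusters and 84.1% of Flp-In clusters were shared.

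The SH-SY5Y-only genes with the most clusters were all long. LINGO2 (chr9:27937617-29213601), a leucine-rich repeat protein of neuronal membranes, held 1409 clusters, CCSER1 1407 and MAGI2, a synaptic scaffold, 1371. CADM2, a synaptic adhesion molecule, held 1203, GRM8, a metabotropic glutamate receptor, 1192, and ALK, the receptor kinase mutated in neuroblastoma, 1168. RBMS3, an RNA-binding protein, held 1166 and CTNNA2, the neuronal alpha-catenin, 1117. All 8 were listed in SH-SY5Y D262V, with 843 to 1806 clusters, and none in Flp-In D262V.

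ALK (chr2:29192774-29921586) had the highest median cluster score of the 8, 300, and a top score of 21496. It stood at 25.2, 10.3 and 12.7 CPM in SH-SY5Y and at 0 in all 3 Flp-In libraries, at least 11-fold higher against a floor of 3 reads per library (adjusted p = 0.00043). RBMS3 junction reads stood at 162, 109 and 186 junction CPM in SH-SY5Y and at 16.7, 23.5 and 26.0 in Flp-In. The groups did not overlap (log2 fold change 2.79, SE 0.357, adjusted p = 5.7e-05). MAGI2 stood at 1.71, 0 and 6.79 CPM against 3.12, 1.46 and 3.99, so its groups overlapped and counts gave no call (adjusted p = 0.98). LINGO2, CCSER1, CADM2, GRM8, RBMS3 and CTNNA2 were too low in counts to be tested.

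The Flp-In-only genes with the most clusters were also long. LRP1B (chr2:140231423-142131016), a giant lipoprotein receptor relative, held 1327 clusters, PRKG1, a cGMP-dependent kinase, 1220, and PDE4D, a cAMP phosphodiesterase, 1135. ERBB4, a neuregulin receptor, held 992, SOX5, a transcription factor, 952, and NKAIN2 895. RYR2, the cardiac calcium release channel, held 781 and PLCB1, a phospholipase C, 710. None of the 8 was listed in SH-SY5Y D262V. Of these, 7 were listed again in Flp-In D262V with 674 to 1230 clusters, and SOX5 was not listed there.

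PDE4D (chr5:58969038-60522128) stood at 9.37, 9.73 and 13.3 CPM in Flp-In and at 0, 0 and 1.48 in SH-SY5Y. The groups did not overlap (log2 fold change -4.51, SE 1.12, adjusted p = 0.0070). Without Flp-In replicate 3 the adjusted p was 0.051, and against differentiated SH-SY5Y libraries the log2 fold change was -0.36 (adjusted p = 0.31). PRKG1 stood at 4.17, 4.86 and 4.88 CPM in Flp-In and at 10.7, 0 and 14.2 in SH-SY5Y, so the groups overlapped and counts gave no call (adjusted p = 0.55). SOX5 had a median cluster score of 22, the lowest of the 8, and ERBB4 one of 78, the highest. LRP1B, ERBB4, SOX5, NKAIN2, RYR2 and PLCB1 were too low to be tested.

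**Figure D2:**
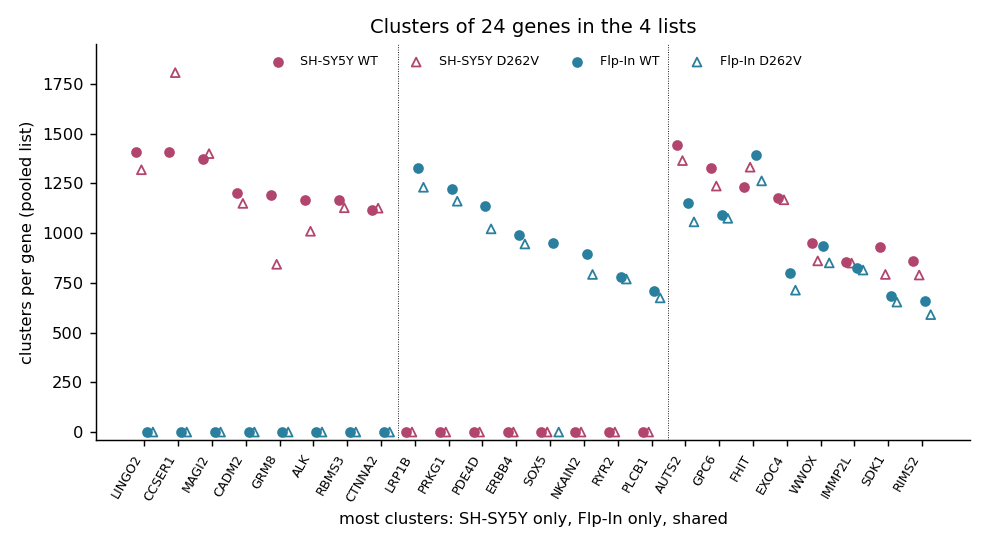
Clusters per gene in the 4 pooled lists for the 8 genes with the most clusters in SH-SY5Y only, the 8 in Flp-In only and the 8 with the most shared clusters. Filled circles are WT and open triangles D262V. SH-SY5Y-only genes stand at 843 to 1806 in both SH-SY5Y lists and at 0 in both Flp-In lists, and SOX5 alone among the Flp-In-only genes stands at 0 in Flp-In D262V.

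The genes with the most shared clusters were again very long ones. AUTS2, a neurodevelopmental gene (chr7:69598475-70793506), held 1442 clusters in SH-SY5Y and 1149 in Flp-In, of which 88.4% and 88.2% were shared. FHIT and WWOX, which span fragile sites, held 1230 and 1394, and 951 and 934. GPC6, EXOC4, IMMP2L, SDK1 and RIMS2 completed the 8, with 855 to 1325 clusters in SH-SY5Y and 657 to 1093 in Flp-In. AUTS2 stood at 10.4, 13.8 and 10.0 CPM in SH-SY5Y and 4.86, 2.92 and 2.22 in Flp-In (log2 fold change 1.75, SE 0.569, adjusted p = 0.026). That call was lost without Flp-In replicate 2 (adjusted p = 0.092) and without Flp-In replicate 3 (adjusted p = 0.11). GPC6 stood at 7.25, 5.74 and 2.95 CPM against 4.86, 6.81 and 2.22, and its groups overlapped.

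Over the 1048 genes with 100 or more clusters in each list, the median share of shared clusters was 90.4% in SH-SY5Y (quartiles 87.7% and 92.6%) and 85.4% in Flp-In (82.7% and 88.2%). The genes with the largest share were CCDC18, ZNF664, MKLN1 and PRRC2C. CCDC18 had 120 clusters in each list, of which 95.8% and 93.3% were shared. MKLN1, part of an E3 ligase complex, had 257 and 242, of which 97.7% and 92.1% were shared. The genes with the smallest share were RGS5, PALLD, FGD4 and STOX2. RGS5, a regulator of G protein signalling, had 267 clusters in SH-SY5Y and 171 in Flp-In, of which 46.8% and 52.6% were shared. It stood at 58.9, 71.4 and 79.2 CPM in SH-SY5Y and at 4.17, 3.40 and 0 in Flp-In (log2 fold change 4.73, SE 0.580, adjusted p = 8.6e-05). PALLD, an actin-binding protein, had 221 and 352 clusters, and 87.8% of the first but 48.6% of the second were shared.

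The 13 genes listed in both lines at fewer than 0.5 times the larger number were inspected after their values were seen. SLIT2, an axon guidance ligand, had 1 cluster in SH-SY5Y and 500 in Flp-In. ERC2, a presynaptic active-zone protein, had 746 and 3. FAM155A had 1315 and 46, with 695 in Flp-In D262V. KCNQ1OT1, the long antisense RNA of an imprinted domain, had 224 and 45. MIR137HG and MIR181A2HG, hosts of miRNAs, had 169 and 57, and 100 and 41.

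Shared clusters scored higher than line-specific ones within each list. The score is the authors' own whole number per cluster, the sources used here name no unit for it, and it is compared only within a list. In SH-SY5Y the median score was 65 for shared and 39 for line-specific clusters, a ratio of 1.67. In Flp-In it was 57 and 29, a ratio of 1.97. Within genes listed in both lines the medians were 65 and 27, and 57 and 24. Shared clusters were also longer, at a median of 153 against 142 nt in SH-SY5Y and 137 against 115 nt in Flp-In. Whether length bears on the score difference was not tested. With each list cut by score into 10 equal bins from low to high, the share was lowest in bin 2 of SH-SY5Y, at 49.6%, and highest in bin 9, at 78.1%. The Flp-In shares ran from 46.3% in bin 2 to 87.9% in bin 10. In genes of both lines, 97.7% and 99.2% of the clusters of bin 10 were shared.

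**Figure D3:**
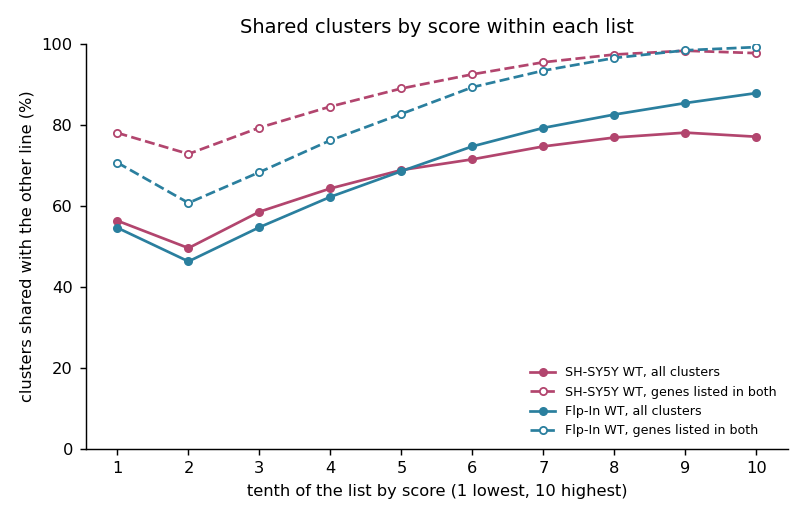
Percent of clusters shared with the other line (y axis) in each of 10 equal bins of a list by score, from low to high (x axis). Solid lines are all clusters and dashed lines clusters in genes listed in both lines. In bin 10 the dashed lines reach 97.7% in SH-SY5Y and 99.2% in Flp-In, above the solid lines at 77.1% and 87.9%.

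The order of clusters within a gene was partly kept between lines. In 4359 genes the median Spearman correlation of the scores of overlapping clusters was 0.50, as a description over clusters of 1 gene, which share libraries. Between WT and D262V it was 0.53 in SH-SY5Y (4922 genes) and 0.58 in Flp-In (4822 genes). The top cluster of a gene overlapped the top cluster of the other line in 58.3% of genes, against 73.5% and 69.1% between the pools of 1 line.

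The highest-scoring clusters of both lists lay in MALAT1, an abundant nuclear noncoding RNA, and in HTT. In SH-SY5Y all of the top 6 were in MALAT1, where an antisense RNA, TALAM1, is also annotated. The first was at chr11:65499536-65499734 with a score of 461858. MALAT1 held 23 clusters, all shared, and 3.36% of the summed score of the list. In Flp-In it held 31 clusters, 27 of them shared, with a top score of 99067 and 1.02% of the summed score. The third of the Flp-In list was a 51-nt cluster of HTT, the huntingtin gene, at chr4:3158770-3158820 with a score of 62889, and the next HTT cluster of that list scored 585. In SH-SY5Y the overlapping HTT cluster scored 123651 and the next 568. It was listed in both D262V pools as well, at 182102 and 84278, so this short cluster stood far above the rest of its gene in all 4 lists.

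Genes with clusters in SH-SY5Y only were more often higher in SH-SY5Y than all genes tested. A gene without clusters in a list was not listed there, which does not show that it was unbound. Of 1501 such genes 540 passed the low-count filter, and 283 of them, 52.4%, were called higher in SH-SY5Y against 38 higher in Flp-In. Over all 10661 genes tested by counts, 50.7% were called, 24.6% higher in SH-SY5Y and 26.1% higher in Flp-In. The median log2 fold change of the SH-SY5Y-only genes was 1.41. Of the 1458 Flp-In-only genes 664 were tested, with 244, or 36.7%, called higher in Flp-In, 99 called higher in SH-SY5Y and a median of -0.55. Genes listed in both lines had 774 and 1266 calls of 4466 and a median of -0.37. In bulk RNA, fewer cells that express a gene and less RNA per cell cannot be told apart.

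Junction reads gave 933 genes to test, of which 52.8% were called, 26.9% higher in SH-SY5Y and 25.9% higher in Flp-In. Of 41 SH-SY5Y-only genes tested, 25, or 61.0%, were higher in SH-SY5Y and 3 were higher in Flp-In. Of 39 Flp-In-only genes, 13 were higher in Flp-In and 10 higher in SH-SY5Y. The share of SH-SY5Y-only genes higher in SH-SY5Y fell to 39.0% without Flp-In replicate 3 and 41.5% without Flp-In replicate 2, where 20.0% and 21.1% of all genes tested were. With every gene of 1 read or more tested by counts, that share was 30.4% of 1186 genes, where 13.6% of all 22314 genes tested were higher in SH-SY5Y. Over the 674 genes tested by both kinds of reads, the log2 fold changes had a Spearman correlation of 0.43. Of these genes 193 were called by both, and 156 of the 193, or 80.8%, had the same direction.

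**Figure D4:**
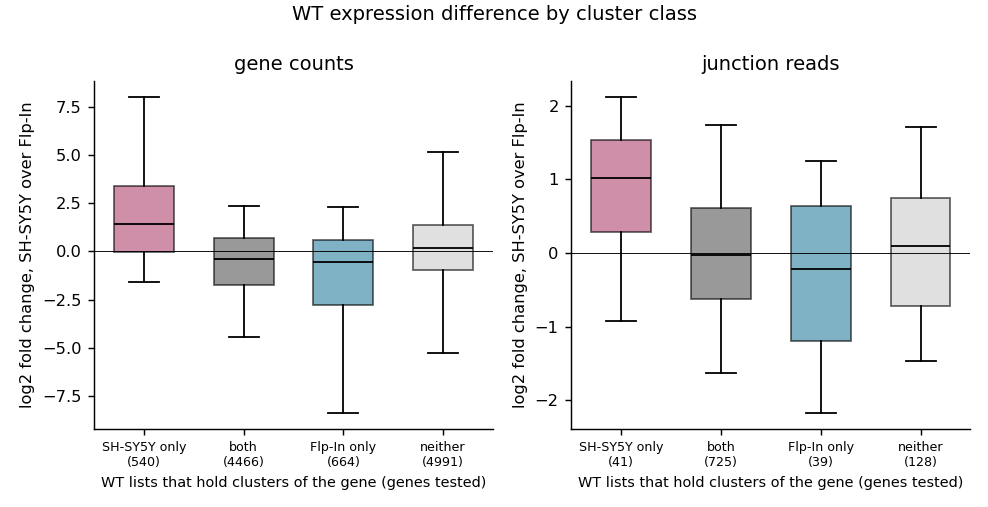
Log2 fold change of WT SH-SY5Y over WT Flp-In (y axis) by the WT lists that hold clusters of the gene (x axis, genes tested in brackets), from gene counts on the left and junction reads on the right. Boxes are quartiles with the median, and whiskers the 5th and 95th percentiles over genes. Medians of SH-SY5Y-only genes are 1.41 and 1.01, of Flp-In-only genes -0.55 and -0.22.

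The number of clusters of a gene listed in both lines followed its expression only loosely. Genes with 20 or more clusters in each line were used. Over 2783 of them, the ratio of cluster numbers and the log2 fold change by counts had a Spearman correlation of 0.13. By junction reads it was 0.30 over 469 genes. Both are descriptions over genes of the same libraries. Among genes with 100 or more clusters the contrast by counts was wider for Flp-In-only genes. For SH-SY5Y-only genes the share higher in Flp-In was larger there too, at 13.1% against 7.04% without that minimum. Of 109 tested Flp-In-only genes 64, or 58.7%, were higher in Flp-In and 6 higher in SH-SY5Y, and of 107 SH-SY5Y-only genes 62, or 57.9%, were higher in SH-SY5Y and 14 in Flp-In.

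Most of the listed line markers that were tested by counts were higher in their own line, with exceptions. Beside this list and those below, 7359 genes in all had clusters in both lines, 1501 in SH-SY5Y only and 1458 in Flp-In only. Of 25 genes of noradrenergic neuroblastoma, 15 had clusters in SH-SY5Y only, 4 in both lines, none in Flp-In only and 6 in neither. Of 19 tested by counts, 18 were higher in SH-SY5Y and 1, SLC18A2, higher in Flp-In. SLC18A2 stood at 424, 495 and 449 CPM in Flp-In against 147, 133 and 113 in SH-SY5Y. Over all genes tested by counts, 24.6% were higher in SH-SY5Y and 26.1% in Flp-In. STMN2, a neuronal microtubule regulator (chr8:79611117-79666158), held 123 clusters in SH-SY5Y and none in Flp-In. It stood at 29.4, 35.4 and 37.2 CPM against 0 in every Flp-In library, at least 23.3-fold higher (adjusted p = 2.7e-05). DBH, which makes noradrenaline, held 30 clusters and stood at 106, 125 and 107 CPM against 8.33, 1.95 and 0.89. GATA3, a lineage transcription factor, held 37 clusters in SH-SY5Y and 24 in Flp-In. Its junction reads stood at 1859, 2037 and 1716 junction CPM against 123, 118 and 108 (log2 fold change 4.01, SE 0.160, adjusted p = 5.7e-09). TH, CHGA and MAB21L2 were at 0 in all 6 libraries and had no clusters.

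Of 16 genes linked to the kidney-derived line, 7 had clusters in Flp-In only, 2 in SH-SY5Y only, 3 in both and 4 in neither. Of 7 tested by counts, 4 were higher in Flp-In and none in SH-SY5Y, where 26.1% and 24.6% of all genes tested were. KRT8 and KRT18, the simple-epithelial keratins, held 26 and 3 clusters in Flp-In and none in SH-SY5Y. KRT8 stood at 598, 536 and 635 CPM against 3.84, 0 and 0 (log2 fold change -8.65, SE 0.550, adjusted p = 8.4e-07). HOXA9, a posterior homeobox gene, held 8 clusters in Flp-In and stood at 33.3, 21.9 and 29.3 CPM against 0, at least 31.8-fold higher in Flp-In (adjusted p = 3.5e-05). The exceptions were EYA1, with 328 clusters in SH-SY5Y and none in Flp-In, and PODXL. PODXL had 33 clusters in SH-SY5Y WT and 27 in Flp-In D262V, and none in Flp-In WT or SH-SY5Y D262V. Of 6 Schwann and glial markers none had a cluster in either WT list. Their summed level was 7.12 to 24.3 CPM in SH-SY5Y and 8.43 to 15.6 CPM in Flp-In, with 2 and 3 of the 6 at 0.

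Splicing regulators of neurons divided the lines. Of 20 such genes 10 had clusters in SH-SY5Y only, 1, CELF2, in Flp-In only, 5 in both and 4 in neither. CELF4 (chr18:37242844-37565798) held 258 clusters in SH-SY5Y and none in Flp-In, and stood at 31.1, 34.0 and 26.0 CPM against 2.78, 8.76 and 3.55 (log2 fold change 2.62, SE 0.483, adjusted p = 0.0012). ELAVL4, whose cluster sequence is given above, held 210 and stood at 7.46, 15.8 and 3.84 CPM against 0, at least 6.2-fold higher (adjusted p = 0.0018). SRRM4, which drives neuronal microexons, held 202 and NOVA1, a neuronal splicing factor, 117, both too low in counts to be tested. ELAVL2 held 127 in SH-SY5Y WT but none in SH-SY5Y D262V. CELF2 held 439 in Flp-In and 444 in Flp-In D262V. MBNL1, bound in both lines with 222 and 225 clusters, stood at 31.6, 45.7 and 48.4 CPM in Flp-In and at 1.07, 0 and 2.66 in SH-SY5Y (log2 fold change -5.12, SE 0.717, adjusted p = 0.00022). Of 10 tested, 7 were higher in SH-SY5Y and 2 in Flp-In, where 24.6% and 26.1% of all genes tested were.

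Of 30 genes of neuronal adhesion and the synapse, 7 had clusters in SH-SY5Y only, 2 in Flp-In only, 4 in both and 17 in neither. TENM4, which acts in synaptic contacts, held 884 clusters in SH-SY5Y only. It stood at 7.89, 6.43 and 6.50 CPM against 0, 0.49 and 0 (log2 fold change 5.27, SE 1.06, adjusted p = 0.0020). The axon guidance receptors ROBO1 and ROBO2 were split, with 636 clusters of ROBO1 in Flp-In only and 943 of ROBO2 in SH-SY5Y only. Counts of ROBO1 overlapped, at 4.48, 4.59 and 3.84 CPM in SH-SY5Y and 4.86, 7.78 and 8.43 in Flp-In (adjusted p = 0.35 for the log2 fold change of -0.69). NLGN1, a postsynaptic adhesion protein, held 752 and 843 clusters in the WT lists and none in SH-SY5Y D262V. CNTNAP2 held 1477 in SH-SY5Y D262V and none in either WT list. Of 9 tested, 6 were higher in SH-SY5Y and none in Flp-In, where 24.6% and 26.1% of all genes tested were.

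The hnRNP and SR protein genes had clusters in both lines with few exceptions. Among all genes with clusters, 7359 were listed in both, 1501 in SH-SY5Y only and 1458 in Flp-In only. Of 27 hnRNP genes 26 had clusters in both, and PCBP1 had 2 clusters in Flp-In only. Of 13 SR genes 12 had clusters in both, and SRSF9 had 7 in Flp-In only. By counts 15 of 26 tested hnRNP genes were higher in Flp-In and 3, PCBP1, PCBP2 and PTBP1, higher in SH-SY5Y. Of 12 SR genes tested, 6 were higher in Flp-In. Over all genes tested by counts, 26.1% were higher in Flp-In and 24.6% in SH-SY5Y. Against differentiated SH-SY5Y libraries 8 of the 15 hnRNP genes were still called higher in Flp-In, 3 lost the call and 4 reversed in sign. The PCBP1 call, a log2 fold change of 1.62, was lost without any 1 of Flp-In replicates 1, 2 and 3 (adjusted p = 0.083, 0.071 and 0.065). By junction reads 8 hnRNP genes were tested, where 25.9% of all genes tested were higher in Flp-In and 26.9% in SH-SY5Y. HNRNPA1, HNRNPA2B1 and HNRNPM were higher in Flp-In, HNRNPDL was higher in SH-SY5Y and 4 were not called. HNRNPDL went the other way by counts, with log2 fold changes of 1.09 by junction reads (SE 0.141, adjusted p = 6.3e-05) and -2.35 by counts (adjusted p = 0.00015). HNRNPC had no call by junction reads, at 3876, 5143 and 4963 against 4628, 4946 and 4789 junction CPM (adjusted p = 0.83), and was called lower in SH-SY5Y by counts with a log2 fold change of -3.05 (adjusted p = 0.00037).

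A further list held 32 genes of ALS and frontotemporal dementia, the diseases in which hnRNPA1 substitutions occur. Of these, 19 had clusters in both lines, 5 in SH-SY5Y only, 2 in Flp-In only and 6 in neither. Among all genes with clusters, 7359 were listed in both lines, 1501 in SH-SY5Y only and 1458 in Flp-In only. The SH-SY5Y-only genes of the disease list were C9orf72, FIG4, UNC13A, NEFH and STMN2, which is also on the noradrenergic list. UNC13A, a synaptic vesicle priming protein, held 65 clusters and stood at 11.9, 6.89 and 11.2 CPM against 0, at least 6.87-fold higher (adjusted p = 0.00078). OPTN and ANXA11 were listed in Flp-In only, with 24 and 39 clusters. ANXA11 junction reads stood at 98.6, 143 and 182 junction CPM in SH-SY5Y and at 291, 282 and 276 in Flp-In (log2 fold change -1.01, SE 0.247, adjusted p = 0.0048). Of 16 genes known as splicing targets of hnRNPA1, 10 had clusters in both lines and 6 in neither. PKM, whose pair of alternative exons hnRNPA1 helps to select, held 34 and 39 clusters, of which 34 and 33 were shared. Its junction reads stood at 4468, 4878 and 4582 junction CPM against 8850, 8302 and 9076 (log2 fold change -0.91, SE 0.120, adjusted p = 6.8e-05). APP held 281 and 286 clusters and BCL2L1, an apoptosis regulator, 49 and 53.

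Of 12 long noncoding RNAs, 9 had clusters in both lines and 1, SNHG14, in SH-SY5Y only with 128 clusters. The numbers over all genes were 7359 and 1501. NEAT1, the paraspeckle RNA, held 33 and 30 clusters and TUG1 13 and 12. KCNQ1OT1 stood at 49.5, 48.9 and 49.0 CPM in SH-SY5Y and at 8.68, 4.38 and 14.6 in Flp-In (log2 fold change 2.40, SE 0.399, adjusted p = 0.00067). GAS5, a snoRNA host with 12 clusters in each list, stood at 9138, 11346 and 13513 junction CPM against 6550, 5412 and 5479 (log2 fold change 0.96, SE 0.159, adjusted p = 0.00033). Against differentiated SH-SY5Y libraries the direction of GAS5 reversed, at -1.02 (adjusted p = 8.9e-10).

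Of 1558 miRNA hairpins in the RefSeq table, 29 were touched by a cluster in SH-SY5Y only, 39 in Flp-In only and 52 in both. UAG stood in 69.2% of the 120 touched hairpins and in 56.0% of all hairpins, UAGG in 30.0% and 21.2%, and UAGGG in 7.5% and 5.78%. The search used the transcribed strand, and each longer motif contains the shorter ones. Of the 29 SH-SY5Y-only hairpins 15 were touched in SH-SY5Y D262V and none in Flp-In D262V. Of the 39 Flp-In-only hairpins 25 were touched in Flp-In D262V and 7 in SH-SY5Y D262V. Clusters that lay inside a RefSeq window from 250 bases before to 50 bases after a start site numbered 201 in SH-SY5Y and 223 in Flp-In. UAG, written TAG in DNA, stood in 66.7% and 65.0% of them, against 52.7% and 52.6% of stretches of the same place and length in all 34789 windows. UAGGG stood in 9.95% and 8.97% against 7.18% and 7.04%.

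Few clusters lay close to the splice sites that could be placed. The junctions listed in both lines gave 4592 splice sites. In genes with such a site, 3.26% of shared and 2.31% of line-specific SH-SY5Y clusters lay within 300 nt of one. In Flp-In it was 3.37% of shared and 4.55% of line-specific clusters. The median distance to the nearest of these sites was 18972 nt for shared and 34191 nt for line-specific clusters in SH-SY5Y. In Flp-In it was 18439 nt and 23396 nt. The sites belong only to events selected between D262V and WT, and other splice sites of these genes were not placed. The distances are therefore not those to the nearest splice site of a gene, and no background positions were set beside them.

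Cassette exons, which are kept or skipped as a unit, could be compared where both lines' tables listed them. Usage is the mean of the authors' percentages for the inclusion junctions, written as a fraction. Of 74 such exons 59 had 20 reads or more in every WT library. Of these 13, or 22.0%, differed in usage by 0.1 or more with groups that did not overlap, 7 higher in SH-SY5Y and 6 higher in Flp-In. Among 19 exons with a cluster in both lines in the exon or within 300 nt, 8 met that rule, against 2 of 5 with one in SH-SY5Y only, 0 of 5 with one in Flp-In only and 3 of 30 with none. With 50 reads or more in every library 7 of 45 exons met it, and 4 of 59 differed by 0.2 or more. With 3 libraries against 3, the exact two-sided permutation test cannot go below p = 0.1. Each named exon stood at that value by its choice, since groups that did not overlap were required.

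ADGRV1, a giant adhesion receptor, used its exon (inner bounds 91150029 and 91150221 on chromosome 5) in 1.00 of reads in all 3 SH-SY5Y libraries and in 0.732, 0.741 and 0.631 in Flp-In. One cluster lay near it in each list, and the pair was shared. ASPH, an aspartate hydroxylase, used its exon at 0.871, 0.780 and 0.875 against 0.613, 0.570 and 0.591. YBEY, an RNA endonuclease of mitochondria, used its exon at 1.00 throughout in SH-SY5Y against 0.782, 0.783 and 0.764. PTK2, the focal adhesion kinase, used a microexon (inner bounds 140769574 and 140769592 on chromosome 8) at 0.211, 0.179 and 0.197 in SH-SY5Y and at 0, 0.0157 and 0.0099 in Flp-In. It had 2 clusters nearby in SH-SY5Y, with a top score of 505, and none in Flp-In. Of the 2, 1 was shared, with a Flp-In cluster that lay further from the exon. YLPM1 and PRMT7, an arginine methyltransferase, went the other way, at 0.873, 0.806 and 0.686 against 0.904, 0.938 and 0.920, and at 0.782, 0.744 and 0.878 against 0.935, 0.895 and 0.963. The YLPM1 difference, SH-SY5Y minus Flp-In, was -0.133 and shrank to -0.0815 without SH-SY5Y replicate 3, below the size of 0.1 required. All 6 pairs of groups were apart, which the choice of the exons required. The mean difference was largest in ADGRV1, at 0.299, but rested on few reads. That exon had 33, 30 and 36 reads in the SH-SY5Y libraries and 35, 35 and 23 in the Flp-In libraries. It thus failed the stricter read minimum given above. So did YBEY, with 26 reads in SH-SY5Y replicate 3, and YLPM1, with 42 in Flp-In replicate 1.

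**Figure D5:**
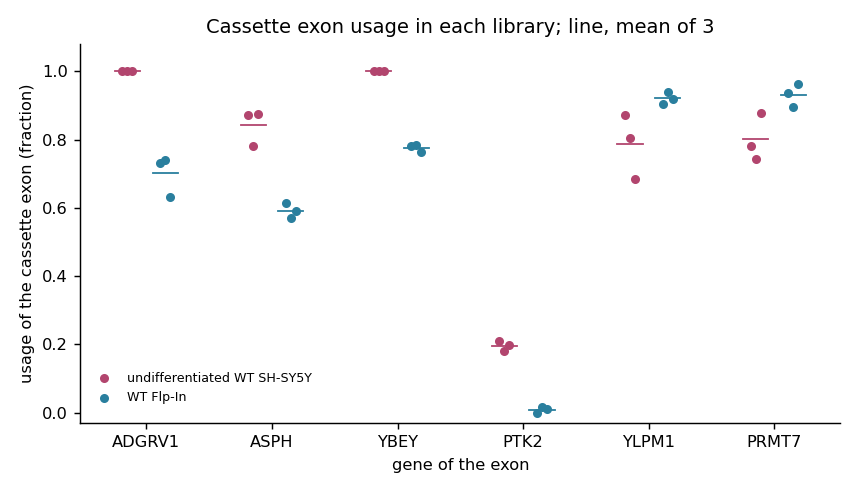
Usage of 6 cassette exons as a fraction of reads (y axis) in the 3 undifferentiated WT SH-SY5Y and the 3 WT Flp-In libraries, 1 point a library, with the mean as a line. The first 4 exons are higher in SH-SY5Y, with ADGRV1 and YBEY at 1.00 in every SH-SY5Y library, and YLPM1 and PRMT7 are higher in Flp-In.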

How the data were processed

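hnRNPA1 irCLIP clusters and poly(A) RNA-seq of WT SH-SY5Y and WT Flp-In cells were compared, and the members and gene lists were chosen with earlier results of these data known. Per the submitters' processing notes, STAR 2.5.3a, HTSeq, DESeq2, Cufflinks and the hg38 build were used, with no roles given. The annotation, the strand setting and the cluster caller are not stated. The clusters and their score are as deposited, 1 list per line and genotype pooled by the authors over 3 samples. The gene count values are as deposited by the authors, raw and per library. The junction tables give a read count and a percent per junction, as deposited by the authors, for events selected between D262V and WT.

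Exact duplicate lines of a list were dropped, and reads in no gene (76.7% to 94.2% of the listed reads) were left out. For gene counts, and for junction counts summed per gene, the quasi-likelihood test of edgeR 4.0.16 in R 4.3.3 was run with TMM scaling, its own low-count filter and Benjamini-Hochberg adjustment over all genes tested. The threshold was an adjusted p of 0.05, and every adjusted p in the text comes from these fits. CPM of gene and junction reads use the TMM-scaled library sizes. Overlaps were computed in Python 3.11.15. Tests were tried on simulated counts first. Named genes were HNRNPA1, the 8 with the most clusters in each line only, the 8 with the most shared clusters, the 4 with the largest and the 4 with the smallest shared share among genes of 100 or more clusters in each list, the genes of the 6 highest-scoring clusters of each list, and members of the fixed lists. Named exons were the 6 with the largest usage difference among those with 20 reads or more, groups apart and a cluster within 300 nt. Alternatives were other overlap rules, score minimums, scalings, filters, DESeq2 1.42.0, a replicate block, differentiated SH-SY5Y libraries and leaving out each library. A share of clusters has a 95% Wilson interval for counting error only, which treats clusters as independent. Results of a few genes of the lists are not reported here.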

Additional observations from a re-analysis of the deposited data

How the results depend on the processing

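With 0.5 of the shorter cluster required to overlap, 65.3% of SH-SY5Y and 68.5% of Flp-In clusters were shared. Within 50 nt the shares were 69.5% and 71.3%, at or above the median score 64.5% and 66.9%, and in genes past the low-count filter 77.4% and 73.3%. With duplicate lines kept, a choice made after the data were seen, they were 67.2% and 69.9%, and with overlapping clusters merged the Flp-In share was 68.1%. The ratio of median scores was 2.41 and 2.38 in genes of both lines, and 1.74 in SH-SY5Y with the stricter overlap. Line-specific clusters were found again in 69.9% and 67.1% of cases with the stricter overlap, and in 76.6% and 71.7% at or above the median score.

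With differentiated WT SH-SY5Y libraries, 10093 genes were called by counts and 750 by junction reads. SH-SY5Y-only genes higher in SH-SY5Y made up 66.1% by counts, and Flp-In-only genes higher in Flp-In 43.6% by counts and 51.9% by junction reads. Over all genes tested there, 39.0% were higher in SH-SY5Y and 28.8% higher in Flp-In by counts, and 40.6% higher in Flp-In by junction reads. With no filter beyond 1 read the shares by counts were 30.4% and 29.6%, against 13.6% and 15.3% of all genes tested, and Flp-In-only genes of 5 or more clusters gave 41.2%. With 50 reads or more 7 exons were called, and with a difference of 0.2 or more 4. The replicate numbers did not pair the libraries, since same-numbered deviations correlated at -0.08 to 0.05. The replicate block gave 4733 and 460 calls, and shares of 45.7% and 33.0% by counts, against 21.0% and 23.4% of all genes tested.

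Without each replicate in turn, calls ran from 4299 to 6089 by counts and from 373 to 522 by junction reads, and exons from 12 to 16. The shares ran from 39.3% to 53.8% and from 27.3% to 40.9% by counts, and from 39.0% to 61.0% and from 30.8% to 33.3% by junction reads. Of 1116 alternative values of 95 named-gene results 1042 kept direction and side of the threshold, 69 lost the call and 5 reversed. The reversed ones were log2 fold changes against differentiated libraries, at 0.085 for HNRNPA3, 0.086 for HNRNPH1, 2.18 for HNRNPH2 and 0.85 for PTBP3 by counts, and -1.02 for GAS5 by junction reads. The cause of these changes was not tested.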

Other observations

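The lines differed in how clusters were spread over the chromosomes. The whole lists held SH-SY5Y and Flp-In clusters at a ratio of 1.11. Some clusters of a list overlap, and with these merged the lists held 427851 in SH-SY5Y and 432265 in Flp-In. The larger number in SH-SY5Y was thus not kept, and the chromosome ratios were not computed on merged clusters. The ratio was highest on chromosome 7, at 1.41 (41189 and 29217 clusters), followed by chromosome 3 at 1.32 and chromosome 2 at 1.31. It was lowest on chromosome 22, at 0.854 (7518 and 8803 clusters), and on chromosome X, at 0.861. On chromosome 7, 130 genes were listed in SH-SY5Y only and 50 in Flp-In only, and on chromosome 22 the numbers were 22 and 56. Each list is a single pool, so these ratios have no replicate error.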
